A study of Mus musculus with 13 samples.

Results

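A group of 7 genes named for nuclear speckles, of 30479 in the deposited table, was followed through all 13 libraries: the long noncoding RNAs Malat1 and Neat1 and the protein-coding genes Son, Srrm1, Srrm2, Prrc2a and Atxn2l. They were chosen by name with earlier results of these data known, above all their higher level in knockout (KO) than in wild-type (WT) testis. That difference is therefore given as a description, with no test. All 7 were found in the table, and all 7 passed the filter on low values (at least 1 RPM, the gene's reads for each 1000000 reads of the library, in at least 2 libraries) in every fit.

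The study examined mice carrying alleles of Wfdc15a, a gene of a family with secreted protease inhibitors among its members, on postnatal day 25, the age shared by all groups. Whole testis, with the outer capsule removed, gave 6 libraries (2 WT, 1 heterozygous or Het, and 3 KO), each from about 2 ng of RNA. Another 7 libraries (2 WT, 2 Het and 3 KO) came from round spermatids, the haploid cells formed by meiosis, with 100 to 200 sorted cells in each. Libraries were made by Smart-seq2, which copies polyadenylated RNA without recording the strand. The labels describe neither the allele nor the strain. They name no animals either, so a p-value here reflects the spread between libraries, which may be technical.

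The 6 testis libraries held 7375270 to 18438704 reads, and the 7 round spermatid libraries 10825690 to 20927428. Wfdc15a was at 207 to 212 RPM in WT testis, 48.4 in Het and 36.8 to 116 in KO, and at 234 to 267, 65.0 to 71.5 and 48.1 to 97.9 RPM in WT, Het and KO round spermatids. Its reads were thus present in every KO library. In earlier work on these data the libraries fell into 2 sets in each cell type: WT with KO replicate 1, and Het with KO replicates 2 and 3. Genes for ribosomal proteins took 3.13% to 5.05% of reads in the first set of testis libraries and 0.912% to 1.32% in the second. Testis KO replicate 1 stands apart from all others: it is the shallowest library, and 15435 genes had a read in it against 20115 to 22587 in the other testis libraries. Round spermatid KO replicate 1 is the deepest library.

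Nuclear speckles are bodies between chromatin domains that hold splicing factors and polyadenylated RNA. SON and SRRM2 are large proteins on which the speckle is built, SRRM1 is a splicing coactivator of the SR-related family, and Malat1 is an abundant nuclear RNA that collects in speckles. Neat1, transcribed from the same part of the chromosome, is instead the scaffold of paraspeckles, separate bodies that lie beside speckles. PRRC2A and ATXN2L are RNA-binding proteins known mainly from the cytoplasm, PRRC2A as a reader of N6-methyladenosine (m6A) and ATXN2L as a component of stress granules. The name of the group therefore holds in full for 4 of the 7 genes, Malat1, Son, Srrm1 and Srrm2, by what is known of them. In spermatogenesis, transcription stops as the spermatid nucleus is compacted, and splicing and RNA storage come before that stop.

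Malat1 (ENSMUSG00000092341.3) lies on chromosome 19 of mm10 from 5795690 to 5802672 on the minus strand, as 1 exon of 6983 bases. Neat1 (ENSMUSG00000092274.3) lies 22035 bases away on the same strand, from 5824708 to 5845478, as 1 exonic block of 20771 bases. Malat1 is known for its 3′ end, which is cut by RNase P rather than polyadenylated, and which is held by a triple helix of 2 U-rich elements and a genome-encoded A-rich tract. The stretch is shown because it sets Malat1 apart from the 5 messenger RNAs of the group in a method that copies from runs of A. It was read from the GENCODE M21 transcript, where it covers bases 6604 to 6691 of 6983 (chr19:5795982-5796069, minus strand), with the U-rich elements (as T) and the A-rich tract in capitals.

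Malat1 3′ stretch: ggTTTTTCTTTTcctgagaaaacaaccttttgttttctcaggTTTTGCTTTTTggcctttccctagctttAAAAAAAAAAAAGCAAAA

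The run of 12 A in this tract is the longest in the transcript, and 292 annotated bases follow the tract. The deposited values count reads over the whole gene, so they do not show where in Malat1 the reads lay.

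The 5 protein-coding genes lie on 4 chromosomes. Son (ENSMUSG00000022961.18) spans chromosome 16 from 91647506 to 91679221 on the plus strand, with 14907 exonic bases, and 2414 of its bases overlap Donson. Without strand, reads from that overlap cannot be told apart between the pair. Srrm1 (ENSMUSG00000028809.16) lies on chromosome 4 from 135320484 to 135353321 (minus strand, 7299 exonic bases). Srrm2 (ENSMUSG00000039218.17) and Prrc2a (ENSMUSG00000024393.14) are both on chromosome 17, Srrm2 from 23790532 to 23824741 on the plus strand with 12842 exonic bases and Prrc2a from 35149076 to 35164897 on the minus strand with 7631. Atxn2l (ENSMUSG00000032637.15) lies on chromosome 7 from 126491708 to 126503437 (minus strand, 4782 exonic bases). All 7 are long transcripts for this table: the median exonic length of 19619 annotated genes is 3520 bases, and Atxn2l, the shortest of the 7, is longer than 64.7% of them, Neat1 than 99.5%.

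Promoters from RefSeq (build GRCm38.p6) were matched for 6 of the 7 genes. Those of Malat1 and Atxn2l are shown because they are the noncoding and the coding gene with the largest KO minus WT value in testis, given below. Capitals mark 4 motifs on either strand. The GC box was searched as GGGCGG. The second motif was the CCAAT box. The cyclic AMP response element was searched by its core, TGACGT. The letters TATAAA stood for the TATA box. No motif is part of another. The Malat1 sequence runs from 250 bases before to 50 after the start (chr19:5802623-5802922, minus strand), and that of Atxn2l covers the 250 bases before it (chr7:126503438-126503687, minus strand).

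Malat1 promoter: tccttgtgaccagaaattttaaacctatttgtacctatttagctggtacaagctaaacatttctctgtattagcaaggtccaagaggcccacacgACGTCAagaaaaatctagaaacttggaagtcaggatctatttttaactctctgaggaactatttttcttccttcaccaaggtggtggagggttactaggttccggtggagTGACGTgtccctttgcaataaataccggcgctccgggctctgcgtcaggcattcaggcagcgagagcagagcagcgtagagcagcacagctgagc

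Atxn2l promoter: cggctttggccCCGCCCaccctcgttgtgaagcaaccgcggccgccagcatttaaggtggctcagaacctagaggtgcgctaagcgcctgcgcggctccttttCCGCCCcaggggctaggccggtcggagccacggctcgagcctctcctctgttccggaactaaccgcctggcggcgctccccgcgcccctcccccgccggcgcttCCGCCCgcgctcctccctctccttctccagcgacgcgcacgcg

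The Malat1 window held the core of the cyclic AMP response element at 2 places, present in 7.51% of the 32851 promoters, and no GC box, present in 35.7%. The Atxn2l window held a GC box at 3 places and no such core. The CCAAT box (37.4% of promoters) and the TATA box (13.6%) were in neither window. RefSeq gives Atxn2l another promoter, from a start inside the gene, and that window held the CCAAT box at 3 places and the GC box at 1. These matches describe the letters and were not tested against the expression values.

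Malat1 was at 6.35 and 8.30 RPM in the WT testis libraries, at 155 in Het, and at 188, 163 and 157 in KO replicates 1 to 3. The WT pair was low and the other 4 libraries were high, with no overlap between WT and KO. Round spermatid levels were 15.4 and 12.8 RPM in WT, 38.8 and 47.3 in Het, and 6.4, 34.1 and 36.9 in KO replicates 1 to 3. Here KO replicate 1 had the lowest value of the 7 libraries, while KO replicates 2 and 3 stood near Het. The mean of KO over WT was 23.1-fold in testis and 1.83-fold in round spermatids.

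Neat1 had far fewer reads, from 8 to 332 per library, so its values carry more counting error. In testis Neat1 was at 0.434 and 3.10 RPM in WT, 22.3 in Het, and 11.3, 26.0 and 18.9 in KO replicates 1 to 3. The 2 WT values differ by several fold and both lie below every other testis library. In round spermatids Neat1 was at 1.23 and 0.785 RPM in WT, 6.33 and 3.33 in Het, and 0.669, 2.28 and 4.12 in KO replicates 1 to 3. As with Malat1, KO replicate 1 was the lowest of these 7. For Neat1 the KO values overlapped both WT and Het.

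Son was at 19.6 and 26.4 RPM in WT testis, 157 in Het, and 184, 159.5 and 163 in KO replicates 1 to 3. Round spermatid levels were 143 and 114 RPM in WT, 129 and 156 in Het, and 67.5, 135 and 133 in KO replicates 1 to 3. The WT testis pair was thus the only low pair for this speckle scaffold gene, apart from round spermatid KO replicate 1, which lay between them and the rest.

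Srrm2, the other scaffold gene, was at 18.7 and 27.0 RPM in WT testis, 113 in Het, and 85.0, 122 and 133 in KO replicates 1 to 3. Its round spermatid values were 61.7 and 66.7 RPM in WT, 95.2 and 98.7 in Het, and 35.6, 83.1 and 87.9 in KO replicates 1 to 3. Among the 7 genes Srrm2 had the smallest KO over WT ratio in testis, 4.96-fold.

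Srrm1, the splicing coactivator, was at 11 and 14.1 RPM in WT testis, 141 in Het, and 180.1, 149 and 146 in KO replicates 1 to 3. Round spermatid levels were 28.4 and 35.1 RPM in WT, 39.7 and 36.2 in Het, and 22.7, 52.1 and 36.3 in KO replicates 1 to 3. The Het and KO testis libraries were all above every round spermatid library, an order Srrm1 shared with Malat1, Neat1 and Son. For Son the margin was small, 157.5 RPM in the Het testis library against 155.8 in Het round spermatid replicate 2.

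Prrc2a was at 10.4 and 8.87 RPM in WT testis, 83.2 in Het, and 147, 114 and 113 in KO replicates 1 to 3. Round spermatid levels were 67.1 and 73.6 RPM in WT, 110.3 and 94.3 in Het, and 37.8, 84.9 and 114 in KO replicates 1 to 3. Here WT round spermatids were already close to the Het testis library.

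Atxn2l had the most reads of the 7 in every library. It was at 63.0 and 78.6 RPM in WT testis, 941 in Het, and 784, 1017 and 959 in KO replicates 1 to 3. Round spermatid levels were 631 and 675 RPM in WT, 1154 and 1139 in Het, and 572, 1111 and 1179 in KO replicates 1 to 3. The WT testis libraries were low, WT round spermatids and round spermatid KO replicate 1 were intermediate, and the other libraries were high.

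**Figure D1:**
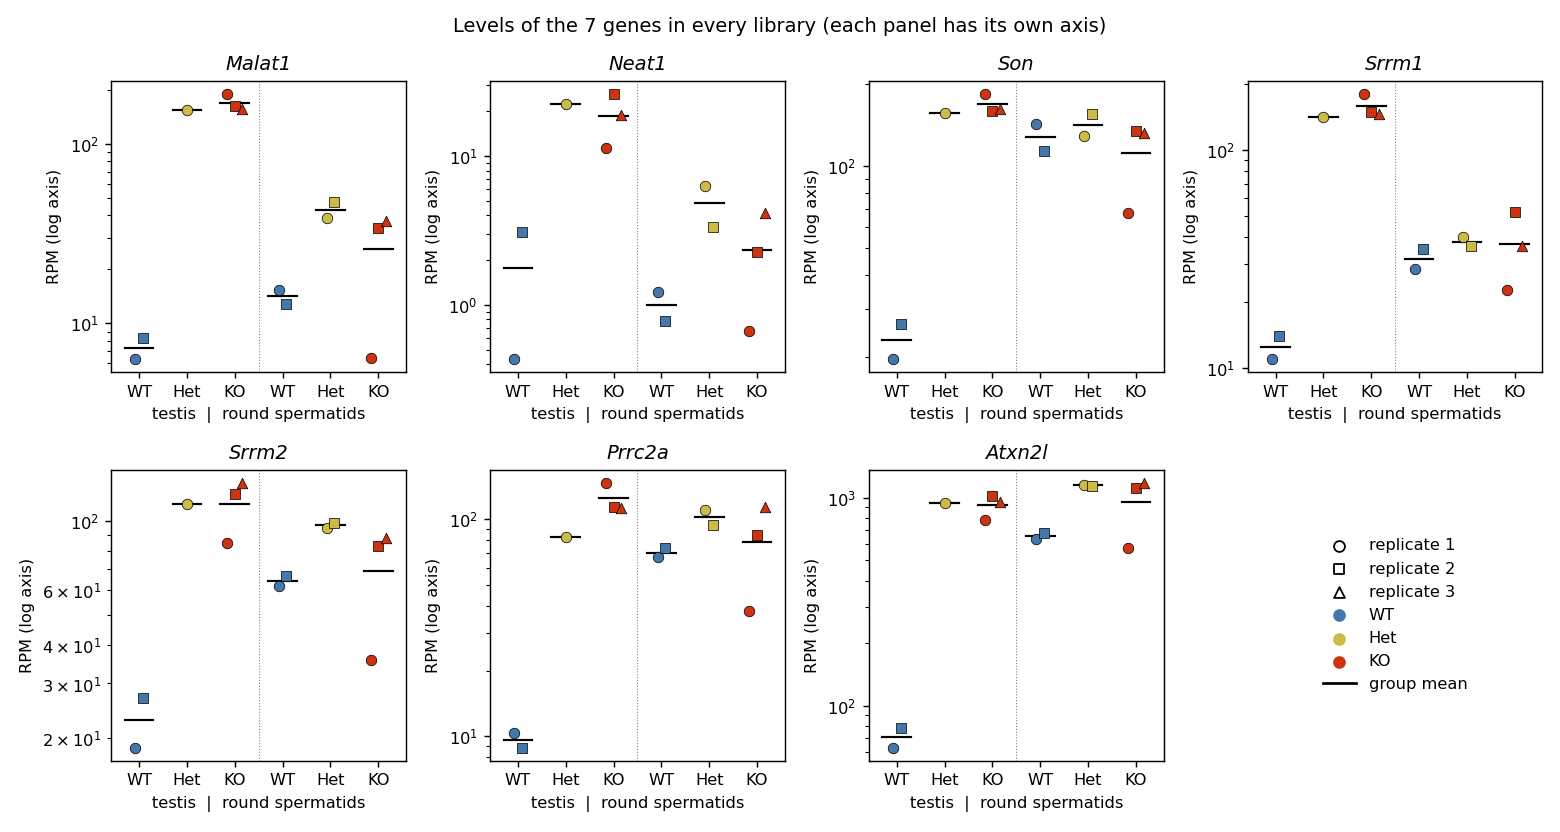
RPM (log axis, 1 panel per gene with its own range) of the 7 genes in the 13 libraries by genotype and cell type; symbols are replicates and black lines are group means. The 2 WT testis libraries lie below the other 4 testis libraries in each panel, and round spermatid KO replicate 1 (red circle) lies below KO replicates 2 and 3.

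Scaled to exonic length as RPM per kilobase (RPKM), the order of the genes differed between groups. Atxn2l had the highest level in every group mean, from 14.8 RPKM in WT testis to 239.8 RPKM in Het round spermatids. Neat1 had the lowest, from 0.0484 RPKM in WT round spermatids to 1.07 RPKM in the Het testis library. Malat1 stood second in KO testis at 24.2 RPKM, above Srrm1 at 21.7 and Prrc2a at 16.4, but in KO round spermatids its level of 3.70 RPKM was below those of all members except Neat1. Son (8.63 RPKM) and Prrc2a (9.22 RPKM) followed Atxn2l (137 RPKM) in WT round spermatids.

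The order of the 6 groups by mean RPM also differed between genes. WT testis was the lowest group for 6 of the 7 genes; for Neat1 it was second lowest, and its range overlapped WT and KO round spermatids. For Malat1, KO testis (169 ± 16.8 RPM, SD, n = 3) and the Het testis library led, followed without overlap by Het round spermatids (43.0 ± 6.03, SD, n = 2), while KO and WT round spermatids overlapped. For Son, KO testis (169 ± 13.3 RPM, SD, n = 3) was first, and Het, WT and KO round spermatids overlapped in sequence above WT testis (23 ± 4.80, SD, n = 2). For Atxn2l, Het round spermatids (1147 ± 10.4 RPM, SD, n = 2), KO round spermatids (954 ± 332, SD, n = 3) and Het and KO testis (920.1 ± 121 in KO, SD, n = 3) overlapped in sequence. The 2 WT groups had the lowest means, and round spermatid KO replicate 1 lay below the WT round spermatids.

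In testis, all 7 genes had every KO library above every WT library. Over all 18570 genes measured there, 28.2% did so, and since the genes were selected on this difference nothing is read from the count. As log2(RPM + 1), Malat1 differed by 4.36 (SE 0.37) between KO and WT. The same difference was 3.68 (SE 0.28) for Atxn2l, 3.56 (SE 0.39) for Prrc2a and 3.56 (SE 0.36) for Srrm1. It was 2.95 (SE 0.80) for Neat1, 2.83 (SE 0.34) for Son and 2.26 (SE 0.41) for Srrm2. The median of the 7 was 3.56, against 0.63 for all genes and 1.14 for the 6679 other genes at least as long as Atxn2l. The estimate for Malat1 exceeded those of 99.9% of genes and that for Srrm2 88.9%. The single Het library gave similar values (Het minus WT from 2.29 for Srrm2 to 4.24 for Malat1, all genes 1.02), but shares its WT libraries with the KO comparison.

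Markers of other cells also differed between testis libraries, but most lists did not share the arrangement of the 7 genes. Every KO library was above every WT library for 9 of 9 stromal, 5 of 9 Leydig, 5 of 14 meiotic and 2 of 13 Sertoli markers. The same held for 3 of 9 spermatogonia, 2 of 7 macrophage, 1 of 5 endothelial and 0 of 6 peritubular myoid markers, against 28.2% of all genes. The summed level of 13 Sertoli cell markers was 83.2 to 89.3 RPM in WT, 1709 in Het, and 22.4 to 1947 in KO, the low value being KO replicate 1, where 4 of the 13 had no read. For 9 Leydig cell markers the sums were 43.4 to 52.6, 859 and 136 to 827 RPM, and for 9 stromal markers 21.2 to 23.3, 771 and 234 to 1290 RPM. For 14 markers of meiotic spermatocytes they were 1477 to 1691, 3229 and 1402 to 3426 RPM. Sums of 16 spermatid markers were 2581 to 4841 RPM in WT, 1227 in Het and 1118 to 2370 in KO, but 7 of the 16 had a KO minus WT above 0. The lower sums lay in the protamine and transition protein genes Prm1, Prm2, Tnp1 and Tnp2, set apart after their values were seen, at 1652 to 3775, 119 and 70.9 to 841 RPM. The other 12 summed to 929 to 1066 RPM in WT, 1108 in Het and 1047 to 1529 in KO. The part of these markers' cells in the levels of the 7 genes was not tested, and in bulk RNA fewer cells of a type and less RNA per cell cannot be told apart. In testis KO replicate 1 the Sertoli (22.4 RPM), meiotic (1402) and spermatid sums (2370) were below WT. The sum of 6 endothelial markers was also below WT, at 0.949 RPM against 4.45 to 8.36. Above WT were the Leydig and stromal sums, 136 and 234 RPM. So were those of 10 spermatogonia markers (68.1 RPM against 20.3 to 24.3) and 6 peritubular myoid markers (204 against 72.9 to 95.8). Yet 6 of the 10 spermatogonia, 1 of the 6 myoid and 2 of the 9 Leydig markers had no read in KO replicate 1. Among markers at least 1 log2 unit higher in KO replicates 2 and 3 than in WT, some lay nearer to WT in KO replicate 1. They were 7 of 8 spermatogonia, 5 of 5 myoid, 7 of 9 Leydig and 3 of 9 stromal markers. The sum of 8 macrophage markers was 11.3 RPM there, against 5.76 to 9.92 in WT. In that KO library the 7 genes were 3.73-fold (Srrm2) to 25.7-fold (Malat1) above the WT mean.

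Testis KO replicate 1 lay with the Het and other KO libraries for all 7 genes. Among the 9180 other genes at least 1 log2 unit higher in KO replicates 2 and 3 than in WT, KO replicate 1 lay nearer to WT for 71.2%, and for 0 of the 7. Malat1, Son, Srrm1 and Prrc2a were higher in KO replicate 1 than in KO replicates 2 and 3 (1.18-, 1.14-, 1.22- and 1.29-fold their mean), while Neat1, Srrm2 and Atxn2l were at 0.50, 0.67 and 0.79 of it. Because the members were selected with the testis values known, this is a description of them. In round spermatids the same replicate number stood on the other side: KO replicate 1 was at 0.45 (Malat1) to 0.88 (Atxn2l) of the WT mean for all 7 genes. Summed, they were at a log2 ratio of -0.37 to WT there. Gene lists described below also lay under WT: other long noncoding RNAs (-0.32), granule proteins (-0.22), m6A genes (-0.10) and SR and speckle proteins (-0.08). SR protein kinases (0.07) and paraspeckle proteins (0.17) lay above.

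**Figure D2:**
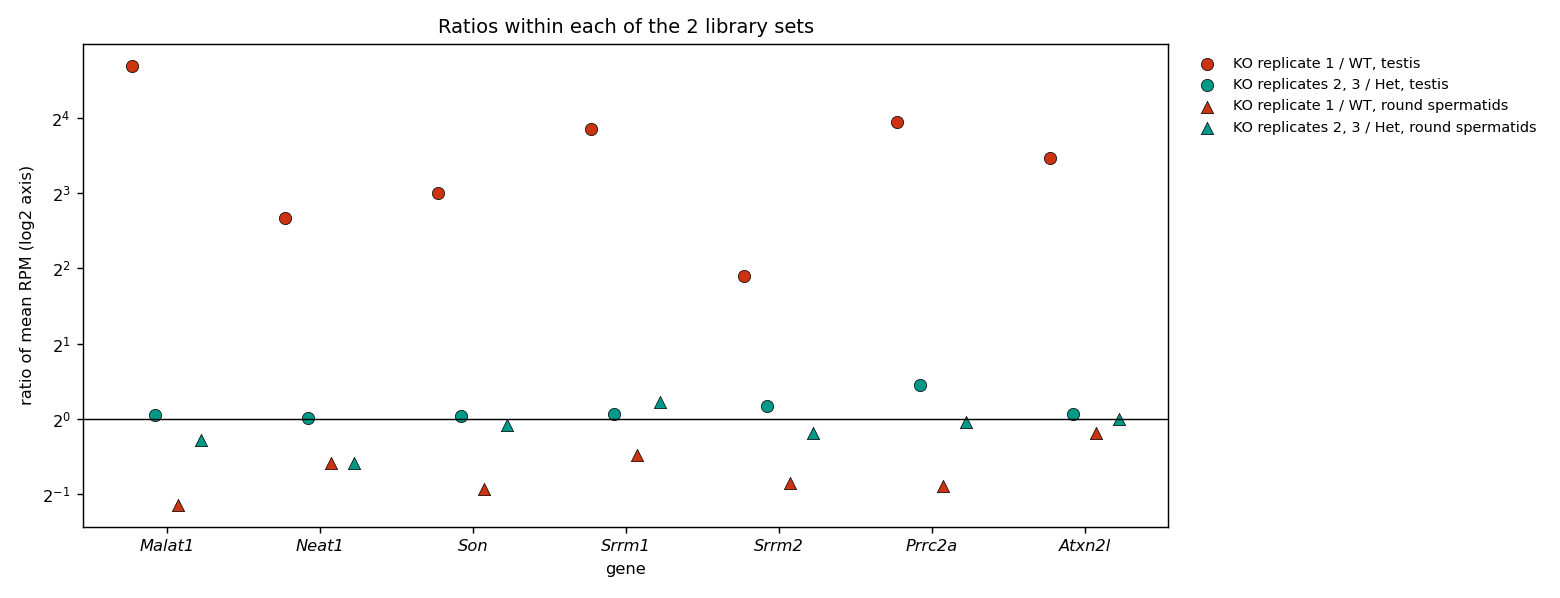
Ratios of mean RPM (log2 axis) inside each set of libraries for the 7 genes: KO replicate 1 over WT (red) and KO replicates 2 and 3 over Het (green), in testis (circles) and round spermatids (triangles). The red circles lie between 3.73 and 25.7, the red triangles below 1, and the green symbols between 0.66 and 1.37.

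In round spermatids the KO libraries did not stand apart from WT for these genes. KO minus WT was 0.51 (SE 0.60) for Malat1, 0.61 (SE 0.55) for Neat1, 0.48 (SE 0.27) for Atxn2l, 0.15 (SE 0.34) for Srrm1, 0.03 (SE 0.38) for Prrc2a, -0.01 (SE 0.35) for Srrm2 and -0.26 (SE 0.30) for Son. None of the 7 passed limma's test (adjusted p from 0.329 to 0.995), none had an unadjusted p under 0.05, and voom on the recovered reads also called 0. Over all 18075 genes the adjusted test called 0% and the unadjusted p was under 0.05 for 21.1%. No member had every KO library above every WT library, against 16.6% of all genes. The 95% intervals run from -0.78 to 0.77 for Srrm2 and from -0.83 to 1.85 for Malat1. A change of 1 log2 unit lies inside that of Malat1.

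This outcome rests on 1 library. Without round spermatid KO replicate 1, KO minus WT was 1.27 for Malat1 (limma adjusted p = 0.00165) and 0.81 for Atxn2l (adjusted p = 3.69e-05), and 2 of the 7 genes and 5514 of all genes were called. The remaining KO libraries then all come from the set without a WT library, so genotype and set cannot be told apart. With the set as a covariate, which compares KO replicate 1 alone with WT, Malat1 was at -1.03 and Prrc2a at -0.88, and 0 of the 7 were called.

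Het round spermatids were compared with WT in the same fit, and the 2 comparisons share the WT libraries. Het minus WT was 1.54 (SE 0.66) for Malat1, 1.5 (SE 0.60) for Neat1, 0.81 (SE 0.30) for Atxn2l, 0.59 (SE 0.38) for Srrm2, 0.53 (SE 0.42) for Prrc2a, 0.26 (SE 0.37) for Srrm1 and 0.15 (SE 0.33) for Son. In RPM the mean of Het over WT was 3.04-fold for Malat1, 4.80-fold for Neat1 and 1.76-fold for Atxn2l. None passed limma's adjusted test (adjusted p = 0.181, 0.161 and 0.134 for these 3), 0% of all genes did, and voom called 0 as well. Unadjusted p-values were under 0.05 for 3 of the 7, Malat1, Neat1 and Atxn2l, against 25.1% of all genes. For 6 of the 7 (all but Son) both Het libraries lay above both WT libraries, against 40.6% of all genes. The median of the 7 was 0.59 and that of all genes 0.23, or 0.47 for 6517 other genes at least as long as Atxn2l.

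Without KO replicate 1, which enters this fit through the shared spread alone, limma called 4 of the 7 in Het minus WT (Malat1, Neat1, Srrm2 and Atxn2l, adjusted p from 3.9e-05 to 0.0341) and 4739 of all genes. Het and WT lie in different sets, so genotype and set cannot be told apart here. Some marker sums of cells that a round spermatid sort should lack moved with the difference, but not all. Those of 6 peritubular myoid markers went the other way, at 112 to 142 RPM in WT, 76.7 to 76.9 in Het and 61.3 to 110 in KO. Those of 6 endothelial markers overlapped between WT (4.66 to 6.48 RPM) and Het (3.14 to 6.79 RPM). The 9 stromal markers summed to 9.64 to 15.4 RPM in WT, 502 to 558 in Het and 7.26 to 1120 in KO. For 9 Leydig markers the sums were 0.294 to 2.51, 59.3 to 63.1 and 1.48 to 78.4 RPM. From 5 to 8 of the 9 Leydig markers had no read in a WT library. In KO the low stromal and Leydig values belong to replicate 1. The Sertoli markers summed to 20.3 to 21.5 RPM in WT, 89.0 to 92.6 in Het and 20.2 to 224 in KO, and the meiotic markers to 1372 to 1509, 1941 to 2112 and 1458 to 2053 RPM. The 16 spermatid markers, which define the sorted cell type, were all detected, but were lower in the second set: they summed to 3517 and 3545 RPM in WT and 3312 in KO replicate 1, against 2609 and 2677 in Het and 2768 and 2207 in KO replicates 2 and 3. Het minus WT was below 0 for 15 of these 16. The part of these markers' cells in the levels of the 7 genes was not tested.

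KO and Het round spermatids were compared in the same fit. KO minus Het was below 0 for all 7 genes, from -0.11 (SE 0.34) for Srrm1 to -1.03 (SE 0.60) for Malat1. Most genes went the same way: 36.8% of all genes were above 0, and their median was -0.14, against -0.50 for the 7. With single libraries left out, the median of the 7 ran from -0.82 to -0.0797 and Srrm1 from -0.39 to 0.20. In the main fit limma called 0 of the 7 with adjusted p from 0.889 to 0.973. Of all genes 0.0111% were called and 5.12% had an unadjusted p under 0.05, as did 0 of the 7. Within the set that holds both, the mean of KO replicates 2 and 3 over Het was 0.83 for Malat1, 0.66 for Neat1, 0.94 for Son, 1.17 for Srrm1, 0.88 for Srrm2, 0.97 for Prrc2a and 1 for Atxn2l. In testis the same ratio ran up to 1.37, for Prrc2a, with a single Het library.

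**Figure D3:**
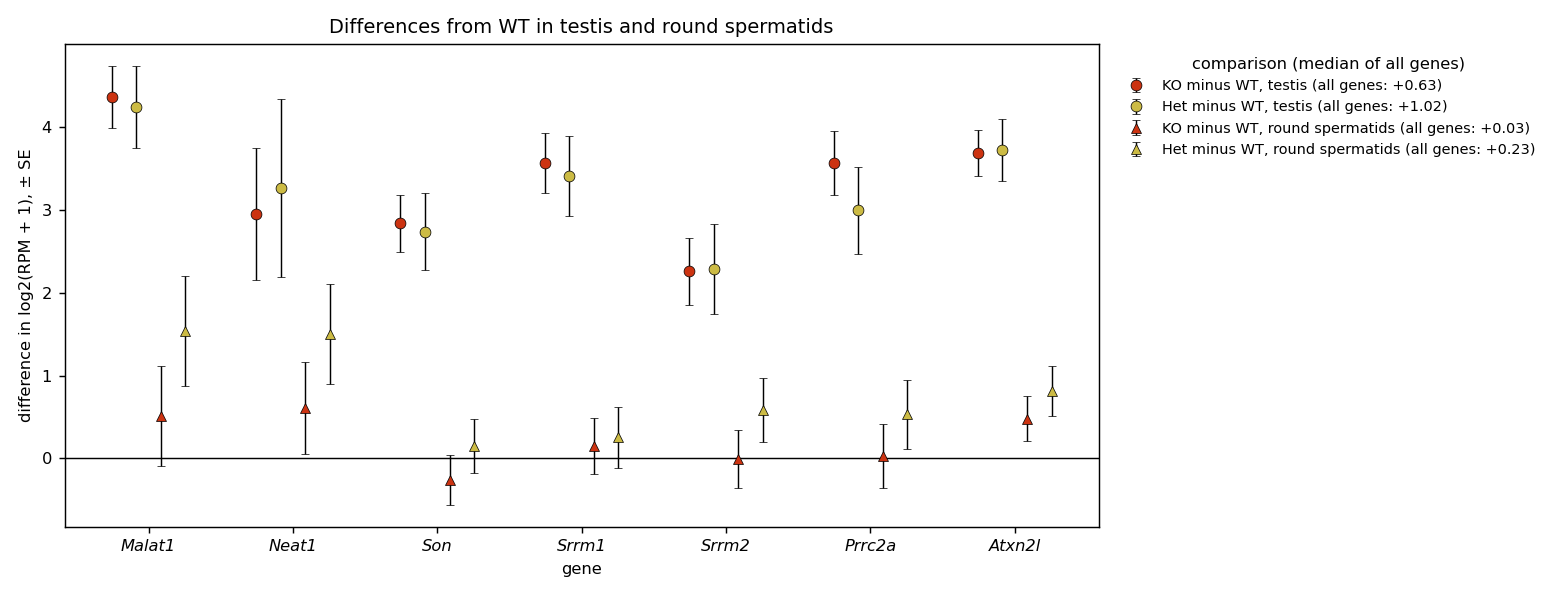
Differences from WT in log2(RPM + 1), with standard errors, for the 7 genes: KO (red) and Het (yellow) in testis (circles) and round spermatids (triangles). Testis values lie between 2.26 and 4.36, round spermatid values between -0.26 and 1.54, and the legend gives the median of all genes for each comparison.

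The 2 cell types also differed in a gene-specific way. In WT, the mean of round spermatids over testis was 9.22-fold for Atxn2l, 7.32-fold for Prrc2a and 5.59-fold for Son, 2.81-fold for Srrm2, 2.53-fold for Srrm1, 1.93-fold for Malat1 and 0.57 for Neat1. In KO it was 1.04 for Atxn2l, 0.61 to 0.66 for Son, Srrm2 and Prrc2a, 0.23 for Srrm1, 0.15 for Malat1 and 0.13 for Neat1. These ratios rest on the low WT testis values and are descriptions. The ratio of Neat1 in WT has no firm direction: its log2 difference of -0.28 ran from -1.04 to 0.48 when single libraries were left out, since WT testis replicate 1 was below and replicate 2 above both WT round spermatid libraries. The cell types were tested in the Het libraries, with 1 testis library, which is assumed to vary like the other groups. That library lies in the set of testis KO replicates 2 and 3, whose levels entered the choice of the genes, so the p-values are not independent of that choice.

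Het round spermatids minus Het testis was -1.87 (SE 0.48) for Srrm1, -1.83 (SE 0.79) for Malat1 and -2.05 (SE 0.90) for Neat1. For the other 4 genes the difference lay between -0.22 (Srrm2) and 0.29 (Prrc2a), with the median of all genes at -0.27. None of the 7 passed limma's adjusted test (adjusted p = 0.375 for Srrm1, 0.401 for Malat1 and 0.403 for Neat1), and neither did any other gene (0%); voom called 0 as well. Unadjusted p-values were under 0.05 for these 3 genes, against 12.2% of all 20085 genes. Without testis KO replicate 1, Srrm1 passed (adjusted p = 0.0178) with 2820 of all genes, and with library quality weights Srrm1, Malat1 and Neat1 passed. The Sertoli, Leydig and stromal sums given above were also lower in Het round spermatids than in Het testis; their part in this result was not tested.

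Across the 13 libraries the 7 genes varied together to different degrees. Pearson's r over log2(RPM + 1) for the 21 pairs ranged from 0.45 (Neat1 with Atxn2l) to 0.97 (Son with Prrc2a), with a median of 0.83. Malat1 went with Srrm1 (0.96) and Neat1 (0.92), and Atxn2l with Prrc2a (0.96) and Son (0.95). Within the 6 testis libraries the median was 0.98, where the WT pair lies apart from the other 4 libraries, and within the 7 round spermatid libraries 0.82. The libraries share the sets described above, so these values describe the profile and are not a test.

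The genes whose profile over the 13 libraries was most like the mean of the 7, among 8094 genes with a mean of at least 10 RPM, were Pak4 (Pearson's r = 0.98), Hspb6 (0.98), Sycp1 (0.98), Tspyl5 (0.97) and Pom121 (0.97). Sycp1, a protein of the synaptonemal complex of meiosis, ranged from 14.9 to 299 RPM. The most opposite profiles were those of Hilpda (-0.98), Ldhc (-0.98) and Gde1 (-0.98). Ldhc, the germ cell lactate dehydrogenase, ranged from 5476 to 18006 RPM. For Malat1 alone the most similar genes were Heg1, Sec62 and Lin52 (0.97 each), and for Neat1 they were Ptpn13 (0.98), Fam161b (0.97) and Snrpd3 (0.97).

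Other genes of the same bodies and pathways were taken as lists. Of 39 SR and speckle proteins, the splicing factors stored in speckles, all were measured, and limma called 0 in either direction in all 4 tests. Their median KO minus WT in round spermatids was 0.51 and Het minus WT 0.94, against 0.03 and 0.23 for all genes. For KO minus WT 35 were above 0, against 52.0% of all genes, and 8 had an unadjusted p under 0.05, against 21.1% of all genes, so that the latter count is near the background. For Het minus WT 37 were above 0, against 61.2%, and 19 had an unadjusted p under 0.05 (18 above and 1 below 0), against 25.1%. For Srsf1, a founding SR protein, Het minus WT was 1.45 (SE 0.54, limma adjusted p = 0.137) and for Rbm25 0.93 (SE 0.34, adjusted p = 0.132). In testis the median KO minus WT of the list was 2.33, against 0.63 for all genes. Their sum in testis was 916 to 1129 RPM in WT, 4411 in Het and 1644 to 4582 in KO, the low KO value being replicate 1.

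In testis KO replicate 1 the lists took different positions. For 26 of the 38 SR and speckle genes at least 1 log2 unit higher in KO replicates 2 and 3 (68.4%), KO replicate 1 lay nearer to WT, a share near the 71.2% of all other genes. The same held for 13 of 19 paraspeckle genes, 14 of 26 granule genes, 9 of 17 m6A genes, 2 of 8 SR protein kinases and 2 of 6 other long noncoding RNAs. The 7 genes were selected on testis values, so nothing is read from their own count of 0. Srsf2, whose product is a common marker of speckles, was at 16 and 19.8 RPM in WT testis, 107 in Het, and 16.9, 134 and 129 in KO replicates 1 to 3, so that KO replicate 1 was at the WT level. Pnn, a speckle protein, was at 6.51 and 3.10 RPM in WT, 85.7 in Het, and 16.5, 76.6 and 88.8 in KO replicates 1 to 3. Rbm25 was nearer to the 7 genes, at 99.3 RPM in KO replicate 1 against 8.35 and 17.8 in WT and 152 to 169 in the others.

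The kinases that phosphorylate SR proteins and release them from speckles were close to WT as a list in round spermatids but not in testis. For 12 genes the median KO minus WT was 0.05 and Het minus WT 0.10 in round spermatids, with 0 called. In testis the medians were 1.34 and 1.5, against 0.63 and 1.02 for all genes. There 9 of the 12 (75%) had every KO library above both WT libraries, against 28.2% of all genes. Other lists were also above that share: 64.1% for SR and speckle, 65.5% for granule and 63.2% for m6A genes. It was 47.6% for paraspeckle genes and 46.2% for other long noncoding RNAs. Their sum there was 757 to 789 RPM in WT, 1167 in Het and 1130 to 1262 in KO, the highest being KO replicate 1. Srpk1 was at 403 to 591 RPM in testis and 502 to 616 in round spermatids. Clk1, a kinase of the CLK family, stood out by value, with Het minus WT of 2.82 (SE 0.72, limma adjusted p = 0.0714) and KO minus WT of 1.87 (SE 0.65, adjusted p = 0.165), but its WT round spermatid values were 9.52 and 0.981 RPM.

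Protein partners of Neat1 in paraspeckles did not share one pattern. Of 20 measured in round spermatids the median KO minus WT was 0.45 and Het minus WT 0.67, against 0.03 and 0.23 for all genes, with 0 called. Unadjusted p-values were under 0.05 for 4 and 9 of them, all above 0, against 21.1% and 25.1% of all genes. In testis, Sfpq was at 3.15 and 6.4 RPM in WT, 71.5 in Het, and 87.5, 63.2 and 75.2 in KO replicates 1 to 3, the same arrangement as Malat1. Its dimer partner Nono was at 0.759 and 0.570 RPM in WT, 36.6 in Het, and 0, 57.7 and 66.2 in KO replicates 1 to 3. The 0 in KO replicate 1 allows up to 0.407 RPM, the level of 3 reads, for counting error only. Cpsf6 was likewise low in KO replicate 1, at 0.949 RPM against 10.8 and 17.2 in WT.

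Other long noncoding RNAs were fewer: 17 of the 27 listed names were in the table, and 10 were measured in round spermatids. Their median KO minus WT was -0.37 and Het minus WT 0.17, against 0.03 and 0.23 for all genes, with 0 called. For KO minus WT 2 had an unadjusted limma p under 0.05, both below 0, against 21.1% of all genes. For Het minus WT there were 1 above and 1 below 0, against 25.1%. Kcnq1ot1, an imprinted nuclear RNA, was at 0.380 and 0.0634 RPM in WT testis, 29.3 in Het, and 32.8, 27.9 and 21.5 in KO replicates 1 to 3, as with Malat1. In round spermatids its KO values were the lowest, at 2.72 to 3.57 RPM against 8 and 8.68 in WT (KO minus WT -1.14, SE 0.38, limma adjusted p = 0.154). Miat, a nuclear RNA, was higher in the first set: 17.4 and 23.4 RPM in WT testis and 18.8 in KO replicate 1, against 4.24 to 4.70 in the other 3 libraries.

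Cytoplasmic granule proteins, the setting of Atxn2l and Prrc2a, had a median KO minus WT of 0.27 and Het minus WT of 0.73 over 28 genes in round spermatids, with 0 called. At an unadjusted p under 0.05 there were 7 and 11 genes above 0 and 1 below 0 in each comparison, against 21.1% and 25.1% of all genes in either direction. Atxn2, the paralog of Atxn2l, was at 6.72 and 13.6 RPM in WT testis, 62.9 in Het, and 79.2, 58.1 and 64.1 in KO replicates 1 to 3, the arrangement of the 7 genes at a lower level. The paralogs of Prrc2a divided. Prrc2b was at 57.9 and 46.8 RPM in WT testis and 14.0 to 29.2 in the other 4 libraries, whereas Prrc2c was at 3.47 and 4.75 in WT and 27.5 to 89.2 in the others. G3bp1, the core stress granule protein, was at 16 RPM in testis KO replicate 1, within the WT values of 14.3 and 27.1.

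For 19 m6A writers and readers the median KO minus WT was 0.41 and Het minus WT 0.59 in round spermatids, with 0 called. An unadjusted p under 0.05 was reached by 3 genes above 0 for KO minus WT, and by 7 above and 1 below 0 for Het minus WT, while 21.1% and 25.1% of all genes did so. Ythdc1, the nuclear m6A reader, was at 2.39 and 4.56 RPM in WT testis and 42.4 in KO replicate 1, against 78.9 to 85.0 in the other 3. Mettl3, the catalytic writer, was at 0.407 RPM in KO replicate 1, below 15.5 and 18.5 in WT.

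**Figure D4:**
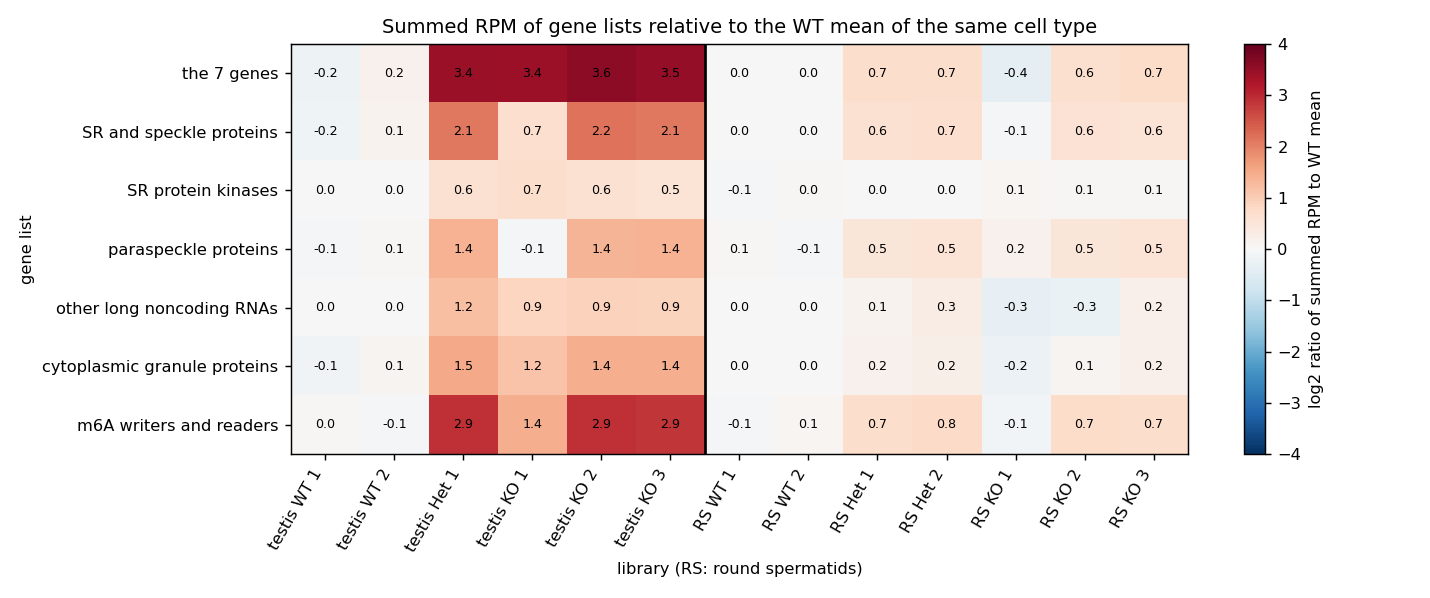
Summed RPM of the 7 genes and of 6 gene lists in each library, as log2 ratio to the WT mean of the same cell type (colour and printed value). In testis KO replicate 1 the sum of the 7 genes is 3.42 above WT, like the Het and other KO libraries (3.45 to 3.56), while SR and speckle proteins are at 0.69 (2.11 to 2.16 in those libraries), paraspeckle proteins at -0.06 (1.37 to 1.40) and m6A genes at 1.44 (2.86 to 2.92). The kinases at 0.71 (0.55 to 0.60), other long noncoding RNAs at 0.85 (0.90 to 1.2) and granule proteins at 1.15 (1.44 to 1.52) lie nearer to those libraries than to WT. The 7 genes were selected with testis values known, so nothing is read from their contrast with the lists. In testis KO replicate 1 Atxn2l gives 784 of the 1580 RPM of their sum.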

How the data were processed

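Reads were trimmed and aligned with Trim Galore 0.6.6 and HISAT2 2.1.0 on mm10 after FastQC 0.11.8, per the submitters' processing notes; which program and annotation counted reads per gene is not given in the sources used here. The deposited table holds log2 RPM, computed by the authors. It was turned back into RPM; from 99.7% to 99.996% of values per library were whole reads within 0.01 read, with 0.9 read standing for none. Differences were fitted with limma 3.58.1 (R 4.3.3; lmFit, eBayes with trend) on log2(RPM + 1), which understates changes of low genes, with two-sided Benjamini-Hochberg adjusted p-values over all genes and a threshold of 0.05. Round spermatid genotypes were compared in a fit of 7 libraries, cell types in a fit of 13; testis differences were only estimated. Of the symbols, 96.8% matched GENCODE M21, which gave lengths and coordinates. No replicate pair agreed within sampling noise (chi-square per degree of freedom at least 10.6). The 7 genes, the gene lists and the comparisons were chosen with earlier results of these data known. Genes named from a list belong to a set fixed by name with it, of which only a part is printed. Like profiles were taken by rank of r. The procedure was tested on simulated data, with each gene's spread capped at the median over genes and no library sets. That run therefore does not cover the spread between the libraries here.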

Additional observations from a re-analysis of the deposited data

How the results depend on the processing

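In testis the direction of the 7 genes against WT was the same under every alternative run. The median KO minus WT was 2.62 with centred and 2.72 with quantile-normalized libraries and 3.10 with exonic length removed. The median Het minus WT in testis was 3.50 with a pseudocount of 0.1, 3.51 on the deposited log2 values, 1.86 centred, 2.11 quantile-normalized, 3.53 with voom and 2.33 with length removed, and 3.09 to 3.57 without single libraries. The median of WT round spermatids minus testis was 1.13 centred, 0.89 quantile-normalized and 1.13 with length removed, and 1.22 to 1.73 without single libraries.

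Round spermatid results depended on single choices, and except where stated the cause was not tested. Centred libraries gave 4 genes called for KO minus WT, 440 for Het minus WT and 0 for KO minus Het; KO minus WT was -0.0347 for Prrc2a, Het minus WT -0.13 for Son and -0.0254 for Srrm1, KO minus Het 0.11 for Srrm1, and Het round spermatids minus testis 0.50 for the median, 0.58 for Son and 0.50 for Srrm2. Quantile-normalized libraries gave 837 genes for Het minus WT and -0.16 for Atxn2l between Het cell types. Library quality weights called 5706 genes and 2 of the 7 for KO minus WT, 4815 and 3 for Het minus WT, 27 genes for KO minus Het, and 6258 and 3 between Het cell types; Son and Srrm2 were then at 0.0271 and 0.32 for KO minus WT and Srrm1 at 0.32 for KO minus Het. With the set as a covariate, 89 genes were called for KO minus WT, where the median was -0.83, Malat1 -1.03, Neat1 -0.26, Srrm1 -0.46, Prrc2a -0.88 and Atxn2l -0.19. Het minus WT then had a median of -0.65, with Malat1 at -0.76, Son -0.83, Srrm1 -0.65, Srrm2 -0.65, Prrc2a -0.83 and Atxn2l -0.19; KO minus Het was 0.20 for Srrm1, and between Het cell types 1475 genes and 1 of the 7 (Srrm1) were called. Het and WT share no set, so Het minus WT with that covariate takes the set difference from the KO libraries. Among those only KO replicate 1 lies in the first set, so these Het minus WT values rest on that library. With exonic length removed, KO minus WT was -0.0027 for the median and Srrm1 and -0.12 for Prrc2a. Het minus WT then called 316 genes, with Son at -0.16 and Srrm1 at -0.0043. KO minus Het was 0.0016 for Srrm1, and Son was at 0.0400 between Het cell types. At an adjusted p under 0.1, 1668 genes were called for Het minus WT. Without a filter 109 were called between Het cell types. The 2 genes called for KO minus Het became 0 with a pseudocount of 0.1, the deposited values, a minimum mean of 5 RPM, no filter, reduced totals, voom and a fit of all 13 libraries. Voom put Prrc2a at -0.0373 for KO minus WT; it was run on library totals, and the planned TMM scaling was not run.

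Leaving out single libraries gave 0 to 5514 genes and 0 to 2 of the 7 called for KO minus WT, with the median from -0.0922 to 0.48, Son from -0.43 to 0.0691, Srrm1 from -0.13 to 0.45, Srrm2 from -0.23 to 0.41 and Prrc2a from -0.30 to 0.48. For Het minus WT it gave 0 to 4739 genes and 0 to 4 of the 7, with Son from -0.0107 to 0.31; without KO replicate 3 the count was 1156. For KO minus Het it gave 0 to 3 genes, with Srrm1 from -0.39 to 0.20, and between Het cell types 0 to 2820 genes and 0 to 1 of the 7. The highest counts were those without KO replicate 1 of round spermatids, or of testis between cell types. A lone remaining library was assumed to vary like the other groups.

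The replicate numbers shared by the labels did not pair libraries within a cell type, where same-numbered deviations correlated at -0.0516 to 0.0715. Across cell types KO replicates 1 to 3 reached 0.595, 0.413 and 0.537, although testis KO replicate 2 correlated better with round spermatid KO replicate 3 (0.5001). Same-numbered WT libraries were at -0.0335. Testis KO replicate 1 was at -0.42 and -0.53 with round spermatid KO replicates 2 and 3. It lies apart from the other KO libraries in testis, as its namesake does in round spermatids. The KO values therefore do not show that the numbers pair libraries across cell types. With a replicate block, 1589 genes were called for Het minus WT and 0 for KO minus Het, and Prrc2a was at -0.30 for KO minus WT.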

Other observations

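The ratio of Malat1 to Neat1 reads ranged from 2.67 in testis WT replicate 2 to 16.7 in testis KO replicate 1, with no order by genotype: WT round spermatids stood at 12.6 and 16.4, Het at 6.13 and 14.2, and KO replicates 1 to 3 at 9.57, 14.9 and 8.97. Meg3, an imprinted long noncoding RNA, was at 9.76 RPM in testis KO replicate 1, at 0 and 0.317 RPM in WT testis, and at 0.288, 1.57 and 0.190 RPM in the Het library and KO replicates 2 and 3. In 5 of the 7 round spermatid libraries it had no read.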
